A study of Mus musculus with 12 samples.

Results

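The genes described here are 10 extracellular proteases and protease inhibitors, picked by symbol. They are the collagenases Mmp8 and Mmp13, the gelatinase Mmp9, the macrophage elastase Mmp12, the membrane-bound Mmp14, the secreted Mmp19, the membrane-anchored metalloproteinase Adam8 and the tissue inhibitors Timp1, Timp2 and Timp3. They make up 10 of the 52553 features counted in the series, and all 10 passed the filter on low counts. Timp1 and Timp3 reached 10 counts in all 3 libraries of a group only in blood after resection. The filter counts libraries over all groups. Elsewhere, Timp1 had 10 or more counts in 2 libraries of spleen after resection and 1 of intact blood. For Timp3 these numbers were 1 and 2.

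Matrix metalloproteinases (MMPs) are zinc-dependent enzymes that cut collagens, elastin and other proteins of the extracellular matrix, and most are made as inactive precursors. TIMPs bind to the active site and block it, and Timp2 can also hold the precursor of Mmp2 in place while Mmp14 activates it. Neutrophils store Mmp8 and Mmp9 in their granules, macrophages secrete Mmp12, and monocytes use several of these enzymes when they cross basement membranes and remodel the matrix of a regenerating liver.

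The libraries came from C57BL/6 male mice. Cells carrying CD115, the M-CSF receptor, were taken with magnetic beads from peripheral blood or from the spleen, either in mice with both spleen and liver untouched or in mice that had lost 70% of the liver to surgery 24 h earlier (PH70%) with the spleen left in place. Per the study's methods, operated mice had isoflurane anaesthesia, open surgery and the analgesic meloxicam. The labels call the other mice intact and name no sham operation. Loss of liver therefore cannot be told apart from these parts of the procedure. There were 3 libraries in each of the 4 groups, and each library pooled cells of 5 mice, so the spread between single animals cannot be seen and p-values measure the spread between pools. The spleen was broken up mechanically and with collagenase and its red cells were lysed, whereas blood went straight to the Ficoll gradient, and both were then sorted on CD115 alone.

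The 12 libraries held between 36990033 and 46401368 estimated counts. Levels are given as CPM, which divides counts by the TMM-scaled depth of the library, and 3 counts, taken as the floor, correspond to 0.0626 to 0.102 CPM depending on the library. Csf1r, which encodes CD115, was present in all 12 libraries at 209 to 1192 CPM. Library 3 of intact blood stood apart from its group, with 6 T-cell markers summing to 2263 CPM against 722 and 710 CPM in libraries 1 and 2. Library 3 of blood after resection and library 3 of spleen after resection stood apart in 12 neutrophil markers, which summed to 18198 CPM against 3612 and 4537 CPM in blood, and to 14077 CPM against 5577 and 5429 CPM in spleen. For part of the results the value without these 3 libraries is given beside the value with all of them. A value printed alone may also move without them. In pooled RNA, fewer cells of a type and less RNA per cell cannot be told apart.

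After resection of the liver, 6 of the 10 genes rose in CD115+ cells of the blood and none fell. The 6 were Mmp8, Mmp9, Mmp13, Mmp14, Adam8 and Timp1, with log2 fold changes from 3.69 to 6.34. Timp1 reached 10 counts in all 3 libraries only in this group, where it is high, so its call is not counted as support. Of the 8 genes other than Timp1 and Timp3, 5 rose. A gene was called when its p in the quasi-likelihood test of edgeR, adjusted after Benjamini and Hochberg over all 20135 features tested (edgeR adjusted p), lay below 0.05 and the log2 fold change was beyond 1 in either direction. By this rule 7.80% of all features were called higher and 6.11% lower in the same comparison. In 9 of the 10 genes every library after resection lay above every intact library, which was so for 19.4% of all features. The 9 include Timp1, which is not counted as support here either, and all of the 8 genes other than Timp1 and Timp3. The median log2 fold change of the 10 genes, Timp1 among them, was 3.85 against -0.10 over all features. This median was the same with Mmp13 at the bound given below.

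**Figure D1:**
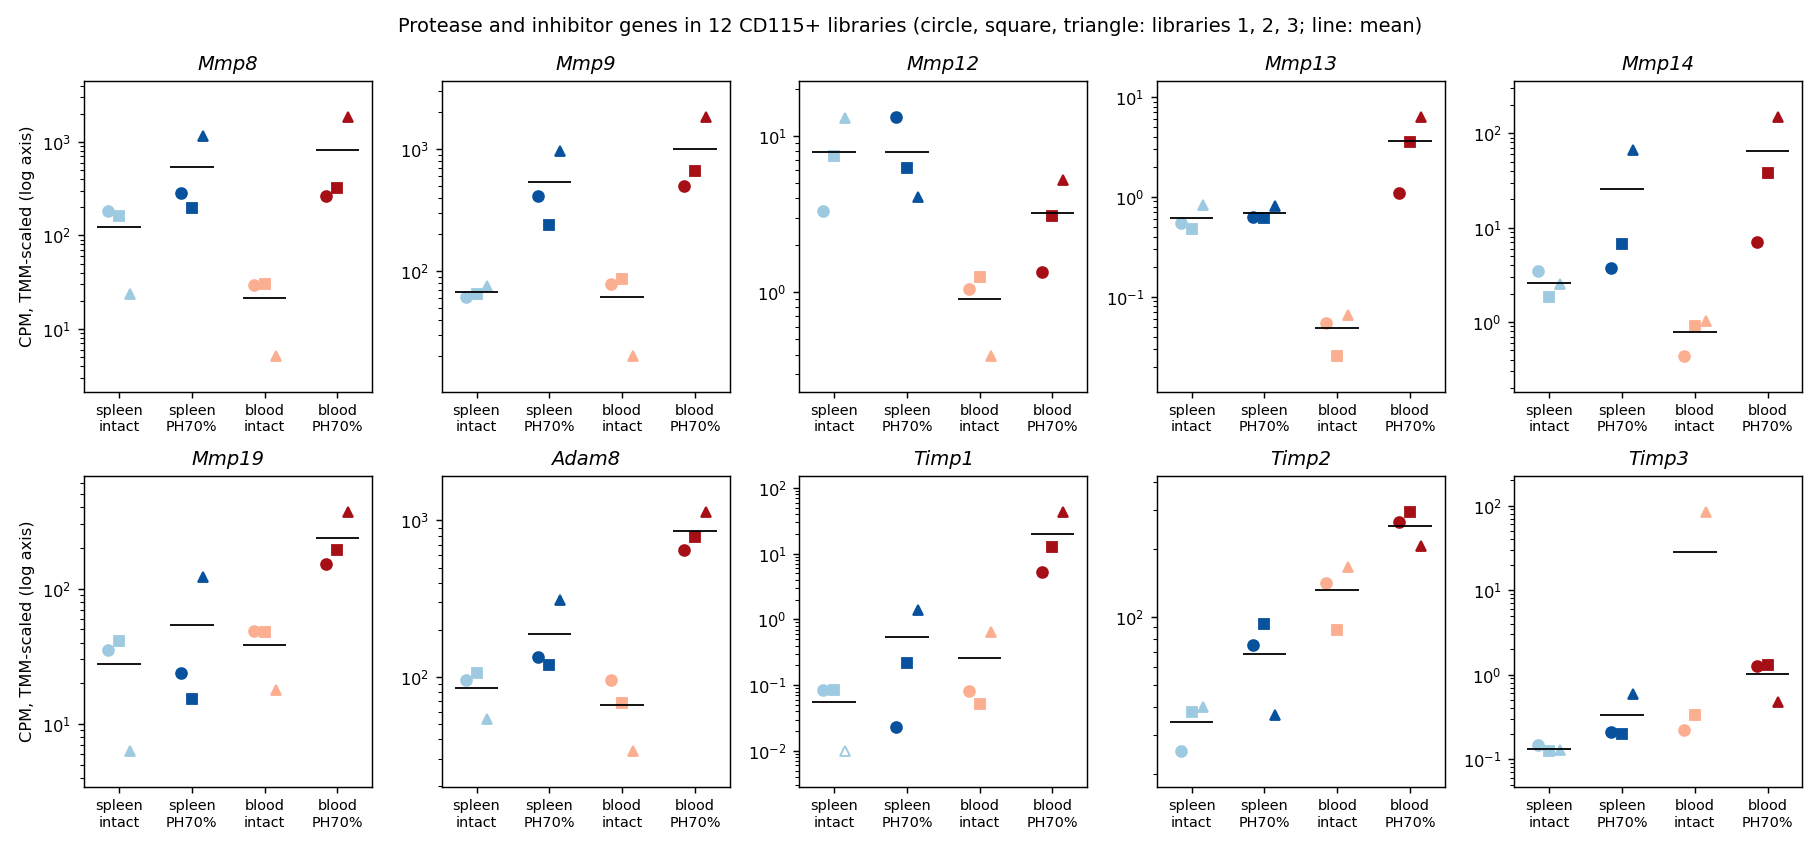
Level of each of the 10 genes in every library (CPM after TMM scaling, log axis, own scale per panel). Circles, squares and triangles are libraries 1, 2 and 3, the line is the mean of the group, and the open triangle for Timp1 marks an intact spleen library with 0 counts, drawn at the foot of the panel. Blood libraries after resection lie above those of intact blood in 9 panels, and the triangle of intact blood in the Timp3 panel lies at 83.8 CPM.

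The collagenase Mmp8, which cuts fibrillar collagen, was at 29.1, 30.2 and 5.16 CPM in the 3 libraries of intact blood and at 264, 322 and 1853 CPM after resection. The groups did not overlap, and library 3 was the lowest of the intact group and the highest of the resected group. The difference had a log2 fold change of 5.24 (SE 1.25, edgeR adjusted p = 0.0166). Without the 3 libraries that stood apart the log2 fold change of Mmp8 was 3.31 and the gene was still called, whereas it was not called when library 3 of blood after resection was the only one left out (3.77) or with the replicate number as a block (4.76).

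Mmp13, the main collagenase of rodents, was barely detected in intact blood, with 2, 1 and 3 counts in the 3 libraries. After resection it reached 1.10, 3.57 and 6.33 CPM, or 36 to 225 counts. Since every intact library was at or below the floor of 3 counts per library, the rise is given as a bound, and Mmp13 was at least 48.8-fold higher after resection. The edgeR adjusted p of this difference was 0.00111, and the gene was called in all 20 alternative settings in which it could be fitted.

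The promoters were searched for short letter motifs, and RefSeq windows of assembly GRCm38.p6 from 250 bases before to 50 bases after the start were at hand for 8 of the 10 genes (9 windows), with none for Mmp9 and Mmp19. The AP-1 motif TGANTCA was looked for on both strands, as was the NF-kB motif, and the motifs were counted separately. The AP-1 letters were in 2 windows, 1 of Mmp13 and 1 of Mmp12, and the NF-kB letters in the other window of Mmp12. Among all 32851 windows of the same length, 7.81% held the AP-1 letters and 8.46% the NF-kB letters. The last 100 bases before the start are shown for the collagenases and the elastase, which lie on chromosome 9, because Mmp13 went from the floor to a call in blood while Mmp12, with the same motif, was not called and Mmp8, without them, was. Capitals mark the AP-1 letters and all stretches are read 5′ to 3′ on the plus strand.
Mmp13, chr9:7272414-7272513: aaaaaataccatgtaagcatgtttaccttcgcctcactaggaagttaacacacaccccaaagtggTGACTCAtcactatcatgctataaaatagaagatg
Mmp12, chr9:7347274-7347373: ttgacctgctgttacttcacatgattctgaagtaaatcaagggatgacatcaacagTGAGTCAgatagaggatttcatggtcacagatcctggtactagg
Mmp8, chr9:7558329-7558428: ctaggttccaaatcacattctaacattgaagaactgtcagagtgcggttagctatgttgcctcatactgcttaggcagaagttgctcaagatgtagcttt
The match begins 35 bases before the start in Mmp13 and 44 bases before it in Mmp12. A match describes the letters only, and its absence says nothing of the factor. The count files were made on GRCm39, so these coordinates belong to the promoter table and not to the counts.

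Mmp9, a gelatinase that digests denatured collagen and basement membrane collagen, was at 78.4, 86.0 and 20.3 CPM in intact blood and at 499, 657 and 1830 CPM after resection. As for Mmp8, library 3 was lowest in intact blood and highest after resection, with no overlap between the groups. The log2 fold change was 4.01 (SE 0.74, edgeR adjusted p = 0.00568), and 2.82 without the 3 libraries. Mmp9 was called in all 21 alternative settings of this comparison.

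Mmp14, the membrane-type enzyme that activates the precursor of Mmp2 at the cell surface, was at 0.440, 0.899 and 1.03 CPM in intact blood and at 7.05, 37.5 and 149 CPM after resection. The 3 libraries after resection differed from each other by up to 21.2-fold, yet the lowest of them was still above all intact libraries. The log2 fold change was 6.34 (SE 1.43, edgeR adjusted p = 0.0130), and 5.06 without the 3 libraries.

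Neither Mmp12 nor Mmp19 passed the test, although their libraries did not overlap. Mmp12, which degrades elastin, was at 1.05, 1.26 and 0.393 CPM in intact blood and at 1.34, 3.06 and 5.21 CPM after resection (log2 fold change 1.83, SE 0.71, edgeR adjusted p = 0.0921). Mmp19, a secreted enzyme with basement membrane proteins among its substrates, was at 49.1, 47.5 and 18.0 CPM against 153, 193 and 368 CPM (log2 fold change 2.64, SE 0.90, edgeR adjusted p = 0.0614). Without the 3 libraries the log2 fold changes were 0.93 for Mmp12 and 1.84 for Mmp19. Mmp19 passed in 5 of 21 alternative settings and Mmp12 in 1, with DESeq2. The exons of Mmp19 share 789 bases with Tmem198b on the opposite strand, and the strand setting of the counting is not given in the sources used here, so reads of these genes may not be separated.

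Adam8, a membrane protease of leukocytes that sheds adhesion molecules from the cell surface, was at 95.7, 68.3 and 33.6 CPM in intact blood and at 646, 780 and 1131 CPM after resection, where the lowest library after resection was well above the highest intact one. Its log2 fold change was 3.69 (SE 0.52, edgeR adjusted p = 0.00196), and 3.12 without the 3 libraries. Adam8 had the smallest standard error among the 6 genes called.

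Among the inhibitors, Timp1 rose, whereas Timp2 and Timp3 did not pass the test. Timp1, an inhibitor of most secreted MMPs that is induced in many injured tissues, had 3, 2 and 29 counts in intact blood and 171, 369 and 1527 counts after resection, which correspond to 0.0826, 0.0514 and 0.633 CPM against 5.22, 12.5 and 43.0 CPM. The groups did not overlap, and library 3 held the highest level in both. The log2 fold change was 6.26 (SE 1.61, edgeR adjusted p = 0.0220). It was 7.00 and still called without the 3 libraries, whereas the call of Timp1 was lost when library 3 of blood after resection (5.16), library 1 of intact blood (5.93) or library 2 of intact blood (5.85) was the only one left out.

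Timp2, the partner of Mmp14, was at 142, 88.0 and 167 CPM in intact blood and at 265, 293 and 206 CPM after resection. Every library was higher after resection, but the shift was small (log2 fold change 0.95, SE 0.35, edgeR adjusted p = 0.0821). Without the 3 libraries the log2 fold change of Timp2 was 1.28 and passed the test.

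Timp3, which binds to the matrix and also inhibits ADAM enzymes, was decided by 1 library. It was at 0.220, 0.334 and 83.8 CPM in intact blood and at 1.28, 1.29 and 0.478 CPM after resection, and the groups overlapped. Library 3 of intact blood, the one with the high T-cell markers, held 3836 counts of Timp3, and no other library of the series held more than 42. The fitted log2 fold change was -4.79 (SE 1.82, edgeR adjusted p = 0.0883) with this library. It was 1.86 and did not pass without it, and 2.20 and called higher without the 3 libraries. Exons of Timp3 and of Syn3 share 1733 bases on opposite strands, and Syn3 had 26 to 102 counts per library.

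Compared per kilobase of exon, the order of the genes in blood after resection was headed by Mmp8 at 335 ± 372, Mmp9 at 281 ± 205 and Adam8 at 184 ± 54.1 CPM per kb (mean ± SD, n = 3). The spreads of these 3 genes overlapped. Mmp19 (67.4 ± 32.3 CPM per kb) and Timp2 (65.5 ± 11.4 CPM per kb) came next and could not be ordered. Timp1 was at 22.7 ± 22.5 and Mmp14 at 10.8 ± 12.6 CPM per kb, also with overlapping spreads. Mmp13 (1.37 ± 0.98), Mmp12 (0.442 ± 0.268) and Timp3 (0.125 ± 0.0572 CPM per kb) were the lowest. In intact blood the order was different at the top, with Timp2 first at 33.9 ± 10.4 CPM per kb, ahead of Mmp9 at 17.4 ± 10.1 and Adam8 at 14.2 ± 6.71 CPM per kb, while Mmp8 stood lower, at 8.87 ± 5.81 CPM per kb. In single libraries of intact blood the order was not fixed, since Mmp9 (24.3 CPM per kb) was above Timp2 (22.6 CPM per kb) in library 2. In spleen Mmp8 had the highest mean both in intact mice (50.3 ± 35.6 CPM per kb) and after resection (225 ± 220 CPM per kb), but Mmp9 was first in library 3 of the intact group (21.4 CPM per kb) and in library 1 after resection (117 against 116 CPM per kb for Mmp8).

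In CD115+ cells of the spleen, none of the 10 genes was called after resection by edgeR, while 0.780% of all features were called higher and 0.596% lower. At an unadjusted p under 0.05 there were 4 genes, namely Mmp9, Mmp14, Adam8 and Timp2, and DESeq2 called 2, Mmp9 and Mmp14, while it called 4.75% of all features higher. In 5 genes, Mmp8, Mmp9, Mmp14, Adam8 and Timp3, every library after resection was above every intact library, against 17.4% of all features. The median log2 fold change of the 10 genes was 1.22, and that of all features 0.05.

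Mmp9 came nearest to a call in the spleen. It was at 61.0, 64.4 and 75.9 CPM in intact mice and at 413, 237 and 958 CPM after resection, and the lowest library after resection was far above the intact group, whose members were close together. The log2 fold change was 3.00 (SE 0.71, edgeR adjusted p = 0.0604). Mmp9 passed in 4 of 21 alternative settings, and without the 3 libraries its log2 fold change was 2.28 and it was called.

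For Mmp8 the spleen libraries were at 184, 160 and 23.6 CPM in intact mice and at 281, 195 and 1160 CPM after resection (log2 fold change 2.15, SE 1.09, edgeR adjusted p = 0.292). The lowest library after resection exceeded the highest intact one only slightly, and library 3 was at the far end of both groups. Without library 3 of spleen after resection the value of Mmp8 was 0.96. Mmp14 was at 3.51, 1.84 and 2.51 CPM against 3.71, 6.77 and 66.5 CPM (log2 fold change 3.29, SE 1.23, edgeR adjusted p = 0.165). Its fitted value rested on library 3 after resection, without which it was 1.00. Adam8 was at 95.0, 106 and 53.4 CPM against 134, 119 and 311 CPM (log2 fold change 1.15, SE 0.48, edgeR adjusted p = 0.205). Without library 3 of spleen after resection the value of Adam8 was 0.58.

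The remaining proteases differed little in the spleen. Mmp12 was at 3.32, 7.45 and 13 CPM in intact mice and at 13.2, 6.24 and 4.06 CPM after resection, with a log2 fold change of -0.02. Mmp13 was at 0.547, 0.480 and 0.830 CPM against 0.631, 0.611 and 0.811 CPM, with a log2 fold change of 0.14. Mmp19 was at 35.2, 41.2 and 6.34 CPM against 23.7, 15.4 and 122 CPM, with library 3 lowest in one group and highest in the other. Its log2 fold change was 0.96 with all libraries and -0.50 without library 3 of spleen after resection. All of these groups overlapped.

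Of the inhibitors in spleen, Timp2 was at 25.4, 37.7 and 39.7 CPM in intact mice and at 75.5, 93.4 and 36.6 CPM after resection: libraries 1 and 2 were above the intact group and library 3 was within it. The log2 fold change of Timp2 was 1.00 (SE 0.35, edgeR adjusted p = 0.147), and 1.30 and called without the 3 libraries. Timp1 was close to the floor, with 4, 4 and 0 counts against 1, 10 and 57 counts (log2 fold change 3.21, edgeR adjusted p = 0.268), and 1.08 without the 3 libraries. Timp3 was at 0.147, 0.125 and 0.128 CPM against 0.210, 0.196 and 0.590 CPM, or at most 24 counts (edgeR adjusted p = 0.738).

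**Figure D2:**
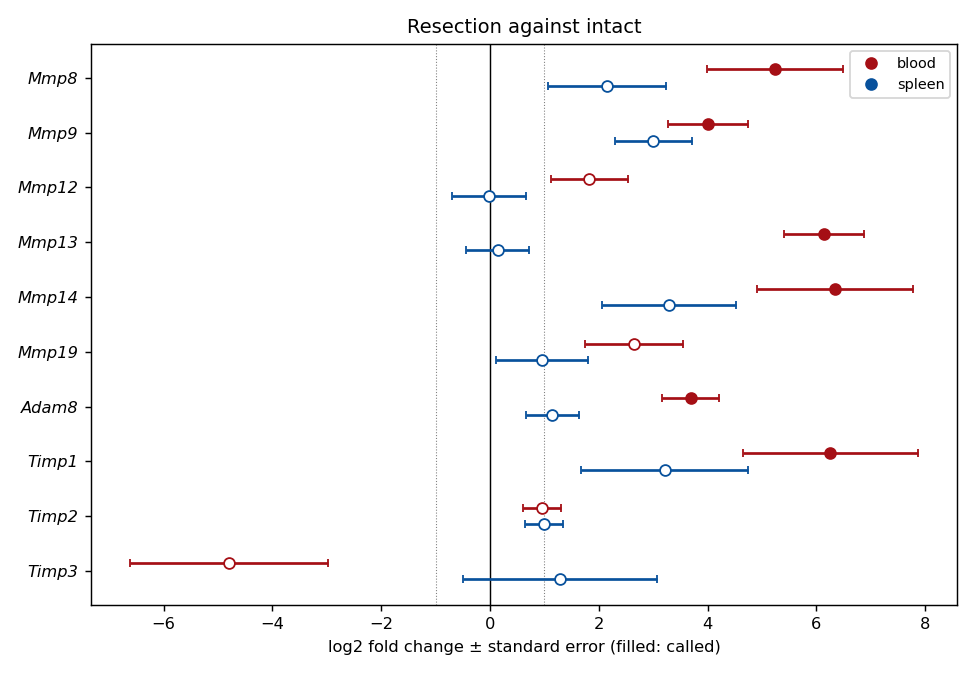
Log2 fold change after resection against intact, with its standard error, for each gene in blood (red) and spleen (blue), from edgeR with 3 libraries per group. Filled points were called and dotted lines mark a log2 fold change of 1 in each direction. The 6 filled points are all in blood, from 3.69 for Adam8 to 6.34 for Mmp14, and the value of Timp3 in blood (-4.79) rests on 1 intact library.

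Whether resection changed a gene more in blood than in spleen was tested as the difference of the log2 fold changes. Mmp13 was the only one of the 10 genes called (5.99, SE 0.91, edgeR adjusted p = 0.0368), against 0.219% of all features called higher and 0.0646% lower. This fitted size depends on intact blood libraries at the floor and is no bound, and the call was lost in 11 of 19 alternative settings. For Adam8 the difference was 2.54 (SE 0.67, edgeR adjusted p = 0.147), and it passed with DESeq2, which called 3.26% of all features higher, and without the 3 libraries. The differences of Mmp8 (3.09), Mmp14 (3.05), Timp1 (3.05) and Mmp9 (1.02) did not pass. Being called in blood and not in spleen is therefore not shown to be a difference between the tissues for these genes. For Timp2 the difference was -0.05 with a standard error of 0.49, since its log2 fold changes were 0.95 in blood and 1.00 in spleen.

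Intact mice differed between blood and spleen in 4 of the 10 genes. The comparison called 2 genes higher in blood (Timp2 and Timp3) and 2 lower (Mmp12 and Mmp13), against 3.86% of all features higher and 3.49% lower. Timp2 was at 142, 88.0 and 167 CPM in blood and at 25.4, 37.7 and 39.7 CPM in spleen, with no overlap (log2 fold change 1.95, SE 0.36, edgeR adjusted p = 0.0119). Mmp12 was at 1.05, 1.26 and 0.393 CPM in blood and at 3.32, 7.45 and 13 CPM in spleen, again with no overlap (log2 fold change -3.14, SE 0.74, edgeR adjusted p = 0.0294), though its call was lost in 8 of 21 alternative settings. Mmp13, with at most 3 counts in any intact blood library against 0.480 to 0.830 CPM in spleen, was at least 8.25-fold lower in blood (edgeR adjusted p = 0.0124). The call of Timp3 (7.69, SE 2.11, edgeR adjusted p = 0.0497) rested on library 3 of intact blood, and without that library the log2 fold change was 1.14 and did not pass. The call of Timp3 was lost in 15 of 18 alternative settings.

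The other genes were not called between the tissues of intact mice. Mmp9 averaged 61.6 ± 35.9 CPM in blood and 67.1 ± 7.80 CPM in spleen, with a log2 difference of -0.12 (SE 0.66). Adam8 averaged 65.9 ± 31.1 CPM in blood and 84.8 ± 27.8 CPM in spleen, with a log2 difference of -0.37 (SE 0.47). Mmp8 was at 5.16 to 30.2 CPM in blood and 23.6 to 184 CPM in spleen, a log2 difference of -2.51 with overlapping libraries (SE 1.10, edgeR adjusted p = 0.188). Mmp14 (-1.72), Mmp19 (0.47) and Timp1 (2.16) did not pass either. The value of Timp1 ranged from 0.34 to 2.64 with each library left out.

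After resection, blood exceeded spleen in 4 of the 10 genes and was lower in none, against 6.28% of all features called higher and 6.87% lower. The 4 were Mmp13, Adam8, Timp1 and Timp2. Timp1 reached 10 counts in all 3 libraries only in this blood group, where it is high, so its call is not counted as support. Adam8 was at 646, 780 and 1131 CPM in blood and 134, 119 and 311 CPM in spleen (log2 fold change 2.18, SE 0.49, edgeR adjusted p = 0.0142). Timp1 was at 5.22, 12.5 and 43.0 CPM in blood and 0.0234, 0.218 and 1.40 CPM in spleen (log2 fold change 5.21, SE 1.52, edgeR adjusted p = 0.0391). In both genes the lowest blood library was above the highest spleen library. Timp2 was at 265, 293 and 206 CPM against 75.5, 93.4 and 36.6 CPM (log2 fold change 1.90, SE 0.36, edgeR adjusted p = 0.00702). Mmp13 was at 1.10, 3.57 and 6.33 CPM against 0.631, 0.611 and 0.811 CPM (log2 fold change 2.42, SE 0.60, edgeR adjusted p = 0.0212). The 2 blood groups and the 2 spleen groups enter the resection comparisons as well, so the comparisons are not independent.

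Timp2 was the only gene of the 10 called higher in blood than in spleen in both states of the liver. Its call in intact mice was lost when library 1 of intact spleen was left out (1.87), and after resection it was called in all 21 alternative settings. Adam8 lost its call after resection without library 1 (2.08) or library 2 (2.04) of that spleen group. The call of Timp1 was lost in 8 of 20 alternative settings and that of Mmp13 in 5 of 20. Without the 3 libraries, Adam8 (2.60), Timp1 (6.26), Timp2 (1.83), Mmp19 (3.25) and Timp3 (2.75) were called and Mmp13 (2.01) was not. Neither Mmp8 (0.58) nor Mmp9 (0.89) passed between the tissues after resection, and the sign of Mmp8 turned to -0.78 without library 3 of blood after resection.

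**Figure D3:**
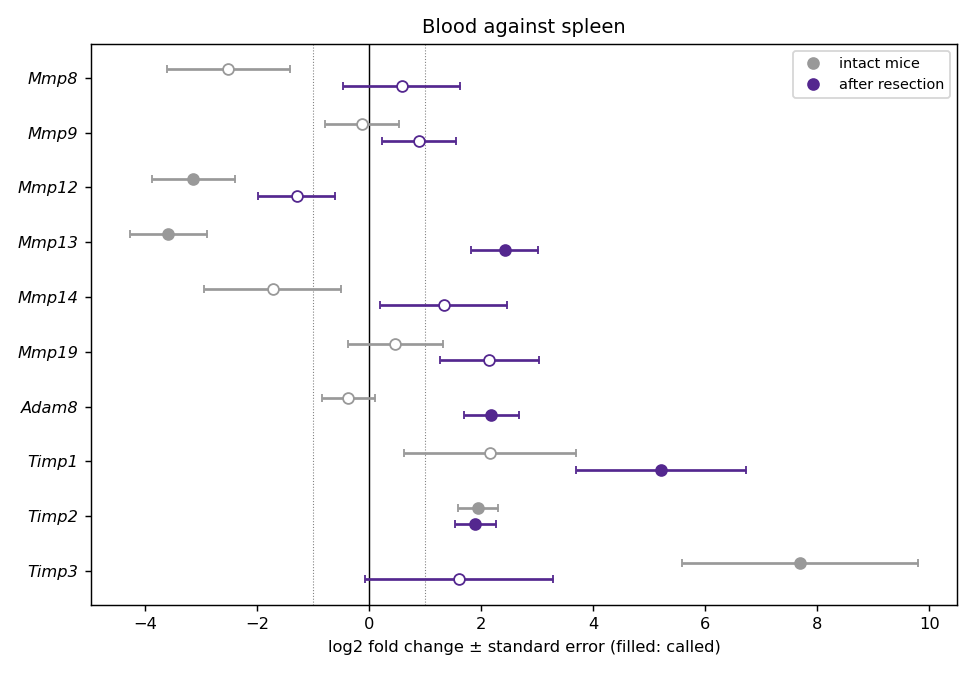
Log2 fold change of blood against spleen, with its standard error, in intact mice (grey) and after resection (violet), from edgeR with 3 libraries per group. Filled points were called. Mmp13 is called on opposite sides of 0 in the 2 states, Timp2 lies at 1.95 and 1.90, and the grey point of Timp3 at 7.69 rests on 1 blood library.

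Mmp9 and its inhibitor Timp1 were also compared within each library, as the log2 ratio of their levels, which does not depend on scaling between libraries. The ratio was 9.89, 10.71 and 5.00 in intact blood and 6.58, 5.71 and 5.41 after resection. Libraries 1 and 2 of intact blood, where Timp1 had 3 and 2 counts, were above the resected group, and library 3, with 29 counts, was below it. The means differed by -2.63 (5.90 ± 0.61 after resection, 8.53 ± 3.08 in intact blood, SD, n = 3), with an exact two-sided permutation p = 0.400, and with a pseudocount of 1 CPM the difference turned to 0.35. After resection the ratio in spleen was 14.11, 10.08 and 9.42, and every spleen library was above every blood library. The difference of -5.30 gave an exact two-sided permutation p = 0.1, which is the smallest that 3 against 3 libraries allow, and it was -2.53 with the pseudocount. Timp1 reached 10 counts in all 3 libraries only in blood after resection, where it is high. The lower ratio in that group is therefore not counted as support. The highest ratios divide by fewer than 3 counts of Timp1 and are uncertain, and with those counts set to the floor of 3, as was tried after the ratios were seen, 10.71 in intact blood became 10.12 and 14.11 in spleen became 12.52. The differences were then -2.44 and -4.77. In intact spleen Timp1 had 0 counts in library 3, so no ratio could be formed there.

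Neutrophil genes rose after resection, as did several of the proteases, but not all proteases followed them. In spleen after resection the log2 fold changes were -0.02 for Mmp12 and 0.14 for Mmp13. For blood against spleen in intact mice the neutrophil markers had a median log2 fold change of -2.59. Mmp8 (-2.51), Mmp12 (-3.14), Mmp14 (-1.72) and Mmp13 also had negative values there, whereas Mmp9 (-0.12), Adam8 (-0.37) and Mmp19 (0.47) differed little. The 12 neutrophil markers summed to 360, 497 and 139 CPM in intact blood and to 3612, 4537 and 18198 CPM after resection, and to 2249, 1984 and 1313 CPM in intact spleen against 5577, 5429 and 14077 CPM after resection. In blood after resection edgeR called all 12 higher, in spleen 2 (Ly6g and Ltf), and none of the 12 was at the floor in any group. The median log2 fold change of the 12 in spleen was 2.22. There, 10 were higher at an unadjusted p under 0.05 and DESeq2 called 10 higher. Mmp8 had 37.1 to 80.9 counts per 1000 counts of these markers in intact blood and 71.0 to 102 after resection, and in spleen 18.0 to 81.8 against 35.9 to 82.4, so the ranges overlapped in both tissues. Mmp9 had 146 to 218 counts per 1000 in intact blood and 101 to 145 after resection, and in spleen 27.1 to 57.8 against 43.6 to 74.0. Its range after resection in blood was just below that of intact blood, while in spleen the ranges overlapped. Adam8 had 137 to 266 counts per 1000 in intact blood and 62.2 to 179 after resection, and in spleen 40.7 to 53.5 against 22.0 to 24.0, where the ranges after resection were lower without overlap in spleen and overlapped in blood. Mmp14 had 1.22 to 7.38 against 1.95 to 8.27 in blood. Neutrophils store Mmp8 and Mmp9, and the part of neutrophil RNA in these results was not tested.

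**Figure D4:**
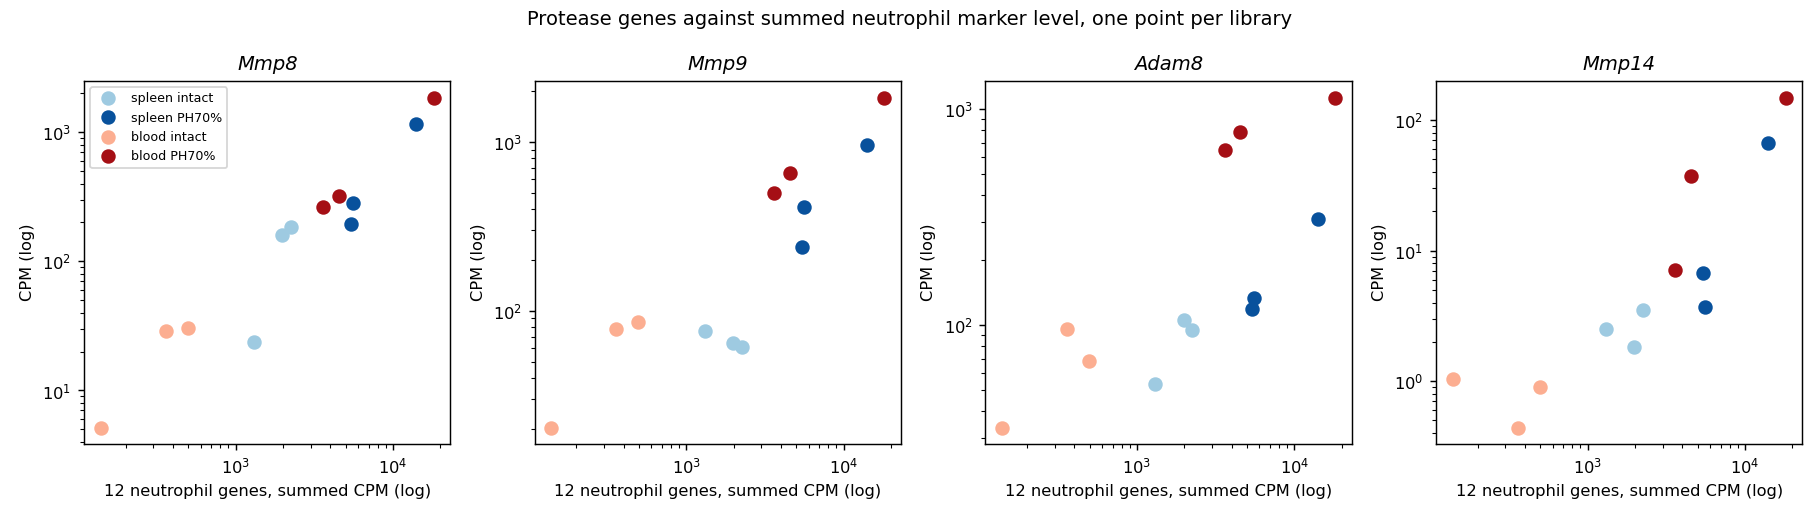
Level of Mmp8, Mmp9, Adam8 and Mmp14 in each of the 12 libraries (CPM, log axis) against the summed level of 12 neutrophil markers in the same library (CPM, log axis). The markers range from 139 CPM in intact blood to 18198 CPM in blood after resection. Blood libraries lie above spleen libraries of like marker level in the panels of Mmp9 and Adam8.

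Markers of other cells moved as well. Of 8 peritoneal macrophage genes, 6 passed the test as higher in blood after resection. The sum of the 8 was 904 to 1976 CPM in intact blood and 9453 to 13462 CPM after resection. In spleen the sum was 22.7 to 34.9 CPM in intact mice and 34.8 to 868 CPM after resection. Saa3 made up much of these sums after resection, at 3760 to 8776 CPM in blood and 19.0 to 847 CPM in spleen. Red pulp macrophage genes (10 listed, 8 called higher in blood) summed to 259 to 740 CPM in intact blood and to 2563 to 3281 CPM after resection. The sum of 10 monocyte genes was 3915 to 8330 CPM in intact blood and 15797 to 22194 CPM after resection, with 1 gene called higher and 2 lower. Fn1, which was not called, carried this sum, and the other 9 genes summed to 864 to 2100 CPM against 1998 to 2446 CPM. Platelet markers (6 genes) summed to 82.5 to 301 CPM in intact blood and to 812 to 899 CPM after resection, but Pf4 was the only one called, and the other 5 summed to 62.4 to 228 CPM against 207 to 275 CPM. The sums of 6 T-cell markers were 710 to 2263 CPM and 126 to 253 CPM. Between the tissues, blood was called higher than spleen in 7 of the 8 peritoneal macrophage genes and all 6 platelet genes in both states of the liver. In intact mice it was also higher in 5 T-cell genes and lower in 6 neutrophil and 6 red pulp macrophage genes. The part of these cells in the results above was not tested.

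Beyond the 10 genes, a list of 19 other MMP and TIMP family genes was followed, of which 9 passed the filter. In blood after resection, edgeR called 3 of them higher and none lower, with a median log2 fold change of 0.59 over the 9. Mmp25, a membrane-anchored MMP of leukocytes, was at 2.31, 3.60 and 1.33 CPM in intact blood and at 26.0, 36.0 and 168 CPM after resection (log2 fold change 4.99, SE 0.81, edgeR adjusted p = 0.00333), and 3.39 without the 3 libraries. The gelatinase Mmp2 was low, at 0.248, 0.462 and 0.218 CPM against 1.16, 1.53 and 2.76 CPM (log2 fold change 2.54, SE 0.49, edgeR adjusted p = 0.00654). Mmp27 had 0, 2 and 11 counts against 31, 41 and 143 counts (log2 fold change 4.37, SE 1.05, edgeR adjusted p = 0.0170), and its call was lost without library 3 of blood after resection (3.59) or without library 2 of intact blood. In spleen edgeR called none, with 2 at an unadjusted p under 0.05 and 1 called by DESeq2. Between the tissues, Mmp15 was higher (1.86) and Mmp11 lower (-2.02) in blood of intact mice, and after resection Mmp2 was higher (1.89) and Mmp11 lower (-1.66). With 1 library left out at a time these calls were lost in 7, 9, 3 and 9 of 12 cases. Timp4 had at most 3 counts in any library and was not tested.

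Genes that activate or bind MMPs rose widely in blood. Of 18 listed genes 14 were tested and 11 were called higher, none lower (median log2 fold change 2.04), among them Elane, which is also one of the neutrophil markers. Serpinb2, which encodes a serine protease inhibitor, had a log2 fold change of 4.34 (SE 0.41, edgeR adjusted p = 0.000491). Prtn3, a serine protease of neutrophil granules, went from 1.73, 1.21 and 1.49 CPM to 45.1, 54.4 and 42.5 CPM (log2 fold change 5.00, SE 0.66, edgeR adjusted p = 0.00150). In spleen edgeR called 2 of the 14 higher and none lower (median log2 fold change 1.29). At an unadjusted p under 0.05 there were 9, all higher, and DESeq2 called 7 higher. Prtn3 (3.44) was one of the 2 that edgeR called. Its call was lost in 8 of the 12 cases with 1 library left out and kept without the 3 libraries (2.42). Intact blood exceeded intact spleen in Serpinb2 (6.40) and Plat (4.02), and after resection these genes differed by 9.26 and 3.28, both again higher in blood.

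The proteins that these enzymes cut were followed with a list of 18 matrix genes, 17 of them tested. In blood after resection 7 were called higher and none lower (median log2 fold change 1.70). Spp1, which encodes the matrix protein and cytokine osteopontin, went from 0.991, 1.13 and 4.52 CPM to 815, 1203 and 1042 CPM (log2 fold change 8.83, SE 0.80, edgeR adjusted p = 0.000428). Vcan, which encodes the proteoglycan versican, had a log2 fold change of 5.81 (SE 1.25, edgeR adjusted p = 0.0109), and the collagen gene Col5a1 one of 6.01 (SE 1.37, edgeR adjusted p = 0.0138). Col5a1 was at 2.84, 1.73 and 44.1 CPM after resection, so library 3 carried its level, and without the 3 libraries its log2 fold change was 3.23 and still called. In spleen edgeR called none, with 4 at an unadjusted p under 0.05 and 4 called by DESeq2. Blood exceeded spleen in 6 matrix genes in intact mice, with the smallest p-values for Dcn (at least 29.9-fold higher), Col3a1 (5.19) and Fn1 (3.56), and in 12 after resection, with the smallest p-values for Spp1 (6.62), Dcn (5.40) and Fn1 (4.38). The resection effect differed between the tissues for Spp1 (difference 6.80, SE 0.90, edgeR adjusted p = 0.0317), a call lost in 8 of the 12 cases with 1 library left out. A list of 10 mesothelial and stromal markers summed to at most 22.3 CPM in any library, with 1 to 5 of them at the floor in every library of a group, and Col1a1 and Col3a1 belong to both lists. Of its 8 tested genes, blood was called higher than spleen in 4 in intact mice (Msln, Upk3b, Krt19 and Col3a1), and after resection 6 were higher and 2 lower, with Msln, Upk3b, Lrrn4, Krt19, Col1a1 and Col3a1 higher. Their part in the matrix genes was not tested.

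Among the 10 genes themselves, the patterns over the 12 libraries were compared by the root mean square difference of log2 CPM, each gene centred on its own mean. The closest pair was Mmp19 and Adam8 (0.77), followed by Mmp9 and Adam8 (0.83), Mmp13 and Adam8 (1.08) and Mmp8 and Mmp9 (1.10). Over all named genes that passed the filter, Adam8 was most like Gm36079 (0.31), Bst1 (0.32) and Pla2g7 (0.34). Mmp8 was most like Tarm1 (0.46), Dgat2 (0.49) and Olfm4 (0.51), and Mmp9 most like Ifitm6 (0.43), Anxa1 (0.45) and Tbc1d2 (0.53). For Mmp14 the nearest genes were Inhba (0.73), Olfml2b (0.75) and Fpr1 (0.80). Timp1 had no gene as close, with Cxcl5 at 1.03, Slc7a2 at 1.04 and Saa1 at 1.07. These distances are not scaled to the spread of a gene over the libraries, so genes that vary more tend to lie further apart. The standard deviation of log2 CPM was 3.07 for Timp1, 2.45 for Mmp14, 2.35 for Mmp8, 1.89 for Mmp9 and 1.55 for Adam8. All values come from the same 12 libraries and are a description.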

How the data were processed

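Per the labels and the study's methods, mRNA of CD115+ cells sorted from spleen and blood was sequenced from strand-specific libraries. For each library the authors deposited estimated counts, scaled neither for depth nor for gene length. The submitters' processing notes name STAR and GRCm39, and the counting tool, annotation and strand setting are not given in the sources used here, so reads shared by paralogs or overlapping genes may be split in unknown ways. Each table had 67088 entries. The 2558 unassigned transcripts took up 1.75% to 4.33% of the counts and entered neither the depths nor the tests. Accessions were summed with their gene symbol where one matched (25340 of 40274, none of them to the 10 genes), counts were rounded, and 52553 features resulted.

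One edgeR 4.0.16 fit (R 4.3.3, filterByExpr, TMM, robust quasi-likelihood, two-sided tests, Benjamini-Hochberg) covered the 12 libraries and 4 groups. The common dispersion was 0.312, and replicates of a group differed by more than counting noise. The fit was tried on simulated data with a dispersion below that of these libraries, so the trial does not cover their full spread. CPM and fold changes were computed from the deposited counts. Exon lengths and overlaps came from GENCODE M21 (GRCm38) and served no other purpose. Alternatives were RLE factors, DESeq2 1.42.0, other filters, a replicate block, the 2 groups alone, no haemoglobin genes, symbol entries alone and each library left out. The genes and lists were chosen with earlier results of these data known. All 10 genes are named, and from each other list up to 3 called genes with the smallest p-value per direction and comparison. The nearest genes in pattern are given for Mmp8, Mmp9, Mmp14, Adam8 and Timp1. Values of 1 listed gene are not reported here.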

Additional observations from a re-analysis of the deposited data

Results flagged for a closer look

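The response of Mmp13 to resection differed between blood and spleen. The test of the difference itself gave a log2 difference of 5.99 (SE 0.91, edgeR adjusted p = 0.0368), with a log2 fold change of 0.14 in spleen (SE 0.58) and at least 48.8-fold higher levels after resection in blood. Mmp13 was higher in 3 of 3 blood libraries after resection than in any intact blood library. The intact blood libraries were at or below 3 counts, so the size of the difference is not a bound, and the call was lost in 11 of 19 alternative settings while the value stayed between 5.40 and 6.46.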

How the results depend on the processing

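Of 1016 values of the 10 genes under alternative settings, 913 kept their direction and their side of the threshold, 55 lost a call, 22 gained one and 26 changed sign. In blood after resection, the number of genes called stayed between 4 and 8 of 10. In spleen it was 0, but 2 with DESeq2, 1 with at least 10 counts in every library and 2 without the 3 libraries that stood apart (a setting chosen after seeing the data), and 0 to 1 with each library left out in turn. For blood against spleen in intact mice it was 4, but 3 with RLE factors, with DESeq2, without a filter, with symbol entries alone and without the 3 libraries, 2 with at least 10 counts in every library, with only the 2 groups compared and with the replicate block, and 2 to 3 with each library left out. After resection it was 4, but 5 with DESeq2 and without the 3 libraries, 3 without a filter and with only the 2 groups compared, 2 with at least 10 counts in every library and 1 to 6 with each library left out. For the difference of the resection effect it was 1, but 2 with DESeq2 and without the 3 libraries, 0 without a filter, with at least 10 counts in every library and with the replicate block, and 0 to 1 with each library left out. DESeq2 gave no adjusted p for Timp3. The filter of 10 counts drops Mmp13, Timp1 and Timp3, and the other causes were not tested.

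With a pseudocount of 1 CPM the log2 ratio of Mmp9 to Timp1 differed by 0.35 instead of -2.63 after resection in blood, and by -2.53 instead of -5.30 between blood and spleen after resection. With each library left out these ranged from -4.40 to -1.55 and from -6.20 to -3.85.

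Signs changed mostly for values near 0. Without the 3 libraries they were 2.20 for Timp3 in blood, 0.30 for Mmp12 and -0.50 for Mmp19 in spleen, 0.40 for Mmp9 and 0.06 for Adam8 between intact tissues, and 1.60 for Timp3 in the difference of effects. With the replicate block, Mmp12 in spleen was 0.09 and Mmp9 between intact tissues 0.03, and Mmp8 in blood (4.76) lost its call. With each library left out, Timp3 in blood ranged from -5.27 to 1.86, in spleen Mmp12 from -0.62 to 0.53, Mmp13 from -0.00 to 0.41 and Mmp19 from -0.50 to 1.39, between intact tissues Mmp9 from -0.34 to 0.40 and Adam8 from -0.68 to 0.05, after resection Mmp8 from -0.78 to 1.87 and Mmp14 from -0.08 to 3.72, and in the difference Timp2 from -0.36 to 0.23 and Timp3 from -6.55 to 0.57. The labels tie same-numbered libraries by number alone. Their deviations from the group means correlated at -0.05 to 0.19, over 0.1 only for libraries 2 (0.13) and 3 (0.19) of blood and spleen after resection, so the block was kept as an alternative.

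The median log2 difference of all features between blood and spleen after resection was -0.14 with TMM, -0.03 with RLE factors and -0.02 without haemoglobin genes, and none of the 10 genes changed sign with these scalings. With 3 pools per group, counts of 3 or fewer (Mmp13 in intact blood) and 1 library with 3836 counts of Timp3 set the limits of what can be compared.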

Other observations

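Lysosomal proteases of the cathepsin group, with cystatin inhibitors, also rose in blood. Of 15 cathepsin and cystatin genes, all tested, 10 were called higher after resection and none lower (median log2 fold change 1.42, against -0.10 over all features). Ctsd, an aspartic protease of the lysosome, had a log2 fold change of 2.73 (SE 0.22, edgeR adjusted p = 0.000394), Ctsz one of 1.58 (SE 0.14, edgeR adjusted p = 0.000428) and Ctsa one of 1.51 (SE 0.16, edgeR adjusted p = 0.000688). In spleen 2 were called, Ctsd (1.32) and Ctsb (1.09), both higher, and these calls were lost in 5 and 11 of 12 cases with 1 library left out. Between blood and spleen of intact mice edgeR called none of the 15, with 5 at an unadjusted p under 0.05 and 1 called by DESeq2, and after resection 6 were higher in blood, with the smallest p-values for Ctsd (1.98), Ctsa (1.01) and Ctsl (3.00). The resection effect was larger in blood than in spleen for Ctsz (difference 1.35, SE 0.20) and Ctsa (difference 1.35, SE 0.23), calls that were lost in 9 and 10 of 12 cases with 1 library left out.

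Of 31 other ADAM and ADAMTS genes 21 were tested, and 4 were called higher in blood after resection, none lower (median log2 fold change 0.60). Over all features 7.80% were called higher and 6.11% lower. At an unadjusted p under 0.05, 6 of the 21 were higher and 3 lower, and DESeq2 called 4 higher and 2 lower. Adam9 had a log2 fold change of 1.93 (SE 0.30, edgeR adjusted p = 0.00299), Adam17, the enzyme that sheds tumour necrosis factor, one of 1.26 (SE 0.26, edgeR adjusted p = 0.00898, not called without library 3 of blood after resection, 0.99), and Adam15 one of 1.42 (SE 0.32, edgeR adjusted p = 0.0129). In spleen edgeR called none of the 21, with 4 at an unadjusted p under 0.05 and 2 called lower by DESeq2. Adam23 (-4.34) and Adamdec1 (-3.86) were lower and Adam15 (2.33) higher in blood than in spleen of intact mice, and Adam28 was at least 6.10-fold lower. After resection the same comparison gave -3.04 for Adam23, -5.60 for Adamdec1, 3.01 for Adam15 and 1.21 for Adam9, and Adam28 was at least 6.88-fold lower in blood. With 1 library left out at a time, the calls of Adam28 and Adamdec1 in intact mice were each lost in 6 of 12 cases, and those of Adam9 and Adam28 after resection each in 4.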
